A study of Mus musculus with 24 samples.

Results

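The comparison concerned the control libraries of 2 activation cultures, LPS + IL-4 and CD40L + IL-4. It used 4 of the 24 libraries of the series, 2 per culture, and they were chosen by genotype and culture label alone. All 4 came from lymph node B cells of C57BL/6 mice of genotype Cd23T/+, which carry a BAC transgene that drives Cre recombinase from Cd23 regulatory sequences and have intact Spi1 and Spib genes, so that the controls share the Cre transgene. The cells were cultured for 48 h with IL-4 and either LPS or CD40L, then sorted as CD3- B220+ CD138- cells, a gate that leaves out T cells and CD138+ plasmablasts. The study's methods give 10 ng/ml IL-4, 20 µg/ml LPS and 50 ng/ml CD40L for its longer cultures, and no separate doses for those used for RNA. No age was given in the labels. The study's methods give only a range of ages for its mice, which were matched for age and sex within each experiment. The 2 replicates per culture were described as biological replicates, but the labels do not tie them to animals. The other libraries (naive cells, and both cultures of PU.1 cKO, SpiB KO and PU.1 SpiB DKO mice) served as reference. The extraction text attached to every library names only CD40L + IL-4; the LPS libraries are identified by their titles and cell type labels.

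B cells can be driven into division from outside the antigen receptor in different ways. CD40L is the T helper cell ligand of CD40, a TNF receptor family member that signals through TRAF adaptors to the NF-kB pathways. LPS, a component of the Gram-negative cell wall, signals through TLR4 and its cofactor MD-2 to the adaptors MyD88 and TRIF, and CD180 is a TLR4-like protein of B cells. The TRIF branch is known to lead to type I interferon in many cells. IL-4, present in both cultures, acts through IL-4 receptor and STAT6 and supports switching to IgG1 and IgE.

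The CD40L and LPS libraries are held in separate count tables and were sequenced separately, so culture and sequencing run are the same split and cannot be told apart in any result here. Total counts were 11334956 and 9598674 in CD40L + IL-4, and 22757630 and 56388071 in LPS + IL-4. The correlation of log2(CPM + 0.5) values was 0.987 between the CD40L replicates, 0.993 between the LPS replicates and 0.937 to 0.956 between cultures. Values are given in CPM, counts scaled to the depth of each library, for the first and second library of each culture, written below as with CD40L and with LPS, IL-4 being in both. In bulk samples such as these, fewer cells of a type and less RNA per cell cannot be told apart. Rn45s, a ribosomal RNA entry, took 1.86% and 0.592% of CD40L counts and 0.575% and 0.490% of LPS counts.

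The cell type label was checked against marker lists. All 10 B cell markers passed the filter on low counts and summed to 7866 and 9542 CPM in CD40L + IL-4 and 5333 and 4728 CPM in LPS + IL-4. Spi1 and Spib, the genes targeted in the other genotypes, were expressed in every control library: 86.5 and 111 CPM with CD40L against 70.4 and 60.5 CPM with LPS for Spi1 and 406 and 542 CPM with CD40L against 270.2 and 210.4 CPM with LPS for Spib. The CD3 genes, Lyz2, C1qa, S100a8 and Hba-a1 were at or near 0, with no value above 0.358 CPM. Genes of other cell types were not all absent. The T cell list (14 genes, 7 tested) summed to 47.7 and 45.8 CPM against 21.6 and 20.5 CPM, mostly Lck, and 5 of the 7 were lower in LPS + IL-4. The NK cell list (8 genes, 5 tested) summed to 7.78 and 9.84 CPM against 1.23 and 1.13 CPM, mostly Prf1, named after its value was seen, with Ncr1 at 0 in all 4 libraries. All 5 tested members were called lower, where 23.5% of all genes were lower. Apart from Lck and Prf1, no gene of the T and NK cell lists exceeded 2.38 CPM. Genes this low can pass the filter through the libraries where they are higher alone, so these counts of lower members were not read as results. The macrophage and monocyte list (15 genes, 6 tested) summed to 48.3 and 64.9 CPM against 21.5 and 14.2 CPM. It was led by Adgre1 and Cd68, named after their values were seen, with Lyz2, Cd14 and Cd163 at 0. The dendritic cell list (11 genes, 8 tested) ran the other way, 31.9 and 40.5 CPM against 97.1 and 124 CPM, led by Bst2 and Flt3, named after their values were seen, and it has Bst2 in common with the interferon list. The stroma and endothelium list (10 genes, 4 tested) summed to 72.8 and 69.4 CPM against 72.5 and 58.95 CPM, mostly Pecam1, named after its value was seen. The part of these traces in the results was not tested.

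Of 13075 genes tested, 5589 were called (42.7%), at a Benjamini-Hochberg adjusted p under 0.15 by edgeR's quasi-likelihood test and a fold change over 1.5. In LPS + IL-4, 2520 genes were higher (19.3%) and 3069 were lower (23.5%). These shares are the background against which each list below is read. The fold exceeded 2 for 3146 genes and 4 for 920, of which 352 were higher and 568 lower in LPS + IL-4. The groups did not overlap for 73.4% of the genes. The median log2 fold change over all genes was -0.04. An exact permutation test of a single gene with 2 against 2 libraries cannot give a p below 0.333, so the p-values here rest on the spread that the fit shares among genes and 16 libraries.

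**Figure D1:**
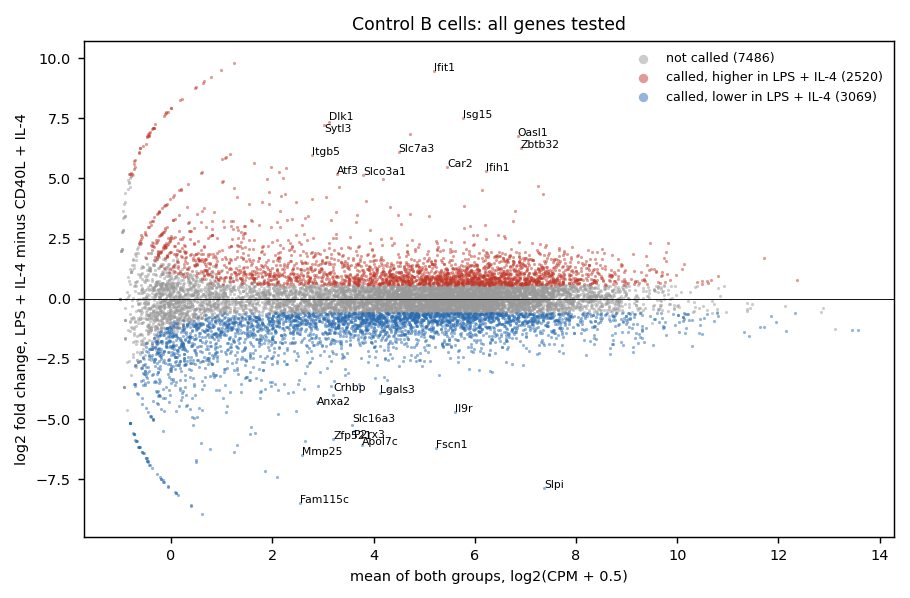
Each point is 1 of the 13075 genes tested, with the mean level of both control groups as log2(CPM + 0.5) on the horizontal axis and the log2 fold change of LPS + IL-4 over CD40L + IL-4 on the vertical axis. The 2520 genes called higher are red and the 3069 called lower are blue, and the labels name the 12 largest rises and falls among genes of at least 10 CPM.

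The largest rises in LPS + IL-4 were led by interferon-stimulated genes, several of which are taken up below. Among the 12 genes, Ifit1, Isg15, Oasl1 and Ifih1 belonged to that list. Zbtb32, a zinc finger repressor of B cells, had 1.79 and 4.43 CPM with CD40L against 207 and 266 CPM with LPS. The difference was large against the spread (log2 fold change 6.29 ± 0.27 SE, adjusted p = 3.5e-09; 7.05 without the second CD40L library). Atf3, a stress-induced transcription factor, had 0.537 and 0.433 CPM with CD40L against 14.3 and 21.6 CPM with LPS, a log2 fold change of 5.19 (adjusted p = 1.7e-06). Slc7a3, a cationic amino acid transporter, had 0.537 and 0.757 CPM with CD40L against 38.6 and 48.3 CPM with LPS, a log2 fold change of 6.08 (adjusted p = 1.6e-08). Car2, carbonic anhydrase 2, had 1.43 and 2.49 CPM with CD40L against 65.8 and 103 CPM with LPS (log2 fold change 5.46 ± 0.32 SE, adjusted p = 8.7e-08), and naive cells had 30.5 and 33.9 CPM. Slco3a1, an organic anion transporter, had 0.805 and 0.649 CPM with CD40L against 21.1 and 30.9 CPM with LPS, a log2 fold change of 5.14 (adjusted p = 7.4e-07). The remaining 3 genes rest on very few CD40L counts. For genes of 1 to 3 counts in a culture the size is given as a ratio of pooled counts, with an exact interval that covers counting error only. Dlk1, a Notch-related membrane protein, had 2 CD40L counts against 1318, a ratio of 169 (95% interval 46.8 to 1401). Sytl3, a synaptotagmin-like protein of vesicle transport, had 2 against 1213, a ratio of 156 (43.1 to 1289); its exons overlap those of Ezr on the other strand. Itgb5, an integrin beta chain, had 4 against 1003 counts, a log2 fold change of 5.99 (adjusted p = 5.9e-07). One predicted gene lay beyond the 12th rise and is counted only.

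The largest falls were mostly genes low in naive cells and present in CD40L + IL-4. Slpi, a secreted inhibitor of leukocyte proteases, was the most abundant, with 308 and 349.8 CPM with CD40L against 1.44 and 1.38 CPM with LPS (log2 fold change -7.87 ± 0.48 SE, adjusted p = 1.0e-07) and naive levels of 3.05 and 1.04 CPM. It lies at chr2:164354070-164356507 (GRCm38.p6), and its exons hold a microRNA gene on the same strand. Il9r, the IL-9 receptor chain, had 103 and 84.1 CPM with CD40L against 3.63 and 3.6 CPM with LPS, a log2 fold change of -4.69 (adjusted p = 7.4e-07), and naive cells lay at 44.6 and 54.6 CPM. Lgals3, galectin-3, had 23.9 and 39.8 CPM with CD40L against 2.66 and 1.74 CPM with LPS, a log2 fold change of -3.90 (adjusted p = 7.9e-07). For Fscn1, an actin-bundling protein of dendritic cells and other motile cells, the CD40L replicates were uneven, with 41.1 and 106 CPM with CD40L against 0.972 and 1.02 CPM with LPS (log2 fold change -6.19 ± 0.59 SE, adjusted p = 2.4e-06). The unevenness recurred: the second CD40L library was well above the first for Apol7c (11.4 and 40.1 CPM), Mmp25 (5.99 and 15.9 CPM), Anxa2 (7.25 and 18.9 CPM) and Fam115c (5.28 and 16 CPM). These 4 were below 1 CPM in both LPS libraries. Without that second library the log2 fold changes were -5.35 for Fscn1, -4.90 for Apol7c, -5.62 for Mmp25, -7.51 for Fam115c and -3.47 for Anxa2, all still called. Zfp521, P2rx3, Slc16a3 and Crhbp had closer replicates, with CD40L levels of 19.8 and 14.4 CPM, 24.9 and 21.3 CPM, 25.2 and 19.5 CPM and 16.3 and 16.6 CPM, and no LPS value above 1.31 CPM; without the second LPS library the log2 fold change of Zfp521 was -5.19. P2rx3 overlaps Ssrp1 on the other strand. For Fam115c, 207 CD40L counts stood against 2 LPS counts, a ratio of 403 (95% interval 110.0 to 3346). Where a mean deposited log2 RPKM above 0 over the 4 libraries was also required (the study set a minimum of 0 on that scale), the calls of Fam115c, Mmp25, Zfp521 and P2rx3 among these falls, and of Ifit1, Dlk1, Sytl3, Itgb5 and Slco3a1 among the rises, were not kept.

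Of the 32 interferon-stimulated genes, 26 were higher in LPS + IL-4 and none was lower, with a median log2 fold change of 1.83. This compares with 19.3% of all genes called higher. These genes encode antiviral effectors and sensors downstream of interferon receptors and IRF factors. Isg15, a ubiquitin-like modifier, had 0.626 and 0.541 CPM with CD40L against 97.5 and 118 CPM with LPS (log2 fold change 7.51 ± 0.40 SE, adjusted p = 3.9e-08). Oasl1, an oligoadenylate synthetase-like protein that limits Irf7 translation, had 2.06 and 2.16 CPM with CD40L against 209 and 246 CPM with LPS (log2 fold change 6.75 ± 0.22 SE, adjusted p = 4.7e-10); it shares exonic bases with an opposite-strand gene. On GRCm38.p6 these genes lie at chr4:156199424-156200818 (Isg15) and chr5:114923143-114937911 (Oasl1). Ifih1, the RNA sensor MDA5, had 3.94 and 3.35 CPM with CD40L against 137 and 154 CPM with LPS (log2 fold change 5.31 ± 0.22 SE, adjusted p = 3.5e-09). In each, both LPS libraries lay far above both CD40L libraries. Irf7, the master regulator of interferon alpha genes, had 1.79 and 3.46 CPM with CD40L against 37.2 and 35.3 CPM with LPS (log2 fold change 3.81 ± 0.29 SE, adjusted p = 4.6e-07). Oasl2 had 2.06 and 2.81 CPM with CD40L against 21.2 and 22.4 CPM with LPS, a log2 fold change of 3.17 (adjusted p = 1.5e-07). Ifit1, an RNA-binding antiviral protein, had 2 CD40L counts in all against 5992 LPS counts, a ratio of 770.3 (95% interval 213 to 6362). Mx2 and Ifi44, named after their values were seen, had no count in either CD40L library; with a floor of 3 counts over the group they were at least 22.3-fold and 6-fold higher in LPS + IL-4, and both lay below 5 CPM there and were not kept with the RPKM minimum. Not called were Ifi27l2a, Stat2 and Ddx58 among others, although Stat2 was called lower under 3 of 19 alternatives (-0.80 to -0.59, the former without the first LPS library); Ddx58, the sensor RIG-I, had 81.8 and 70.3 CPM with CD40L against 77.5 and 68.5 CPM with LPS.

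Naive cells place these levels. On a scale shared by all 24 libraries, both naive libraries were above both CD40L libraries for 30 of the 32 genes and above both LPS libraries for 18, and below both LPS libraries for 8. Isg15 was at 20.5 and 36.2 CPM in naive cells, Ifih1 at 4.88 and 8.48 CPM and Oasl1 at 45 and 78.3 CPM. For most of the list the CD40L cultures were thus the lowest of the 3 groups, whereas Isg15, Oasl1, Ifih1 and Ifit1 were also above naive levels in LPS + IL-4. Naive libraries share a count table with the LPS libraries. Their deposited log2 RPKM values cover 13569 genes, as do those of the CD40L libraries, against 12634 for the LPS libraries. The count table thus does not settle with which culture the naive libraries were sequenced.

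**Figure D2:**
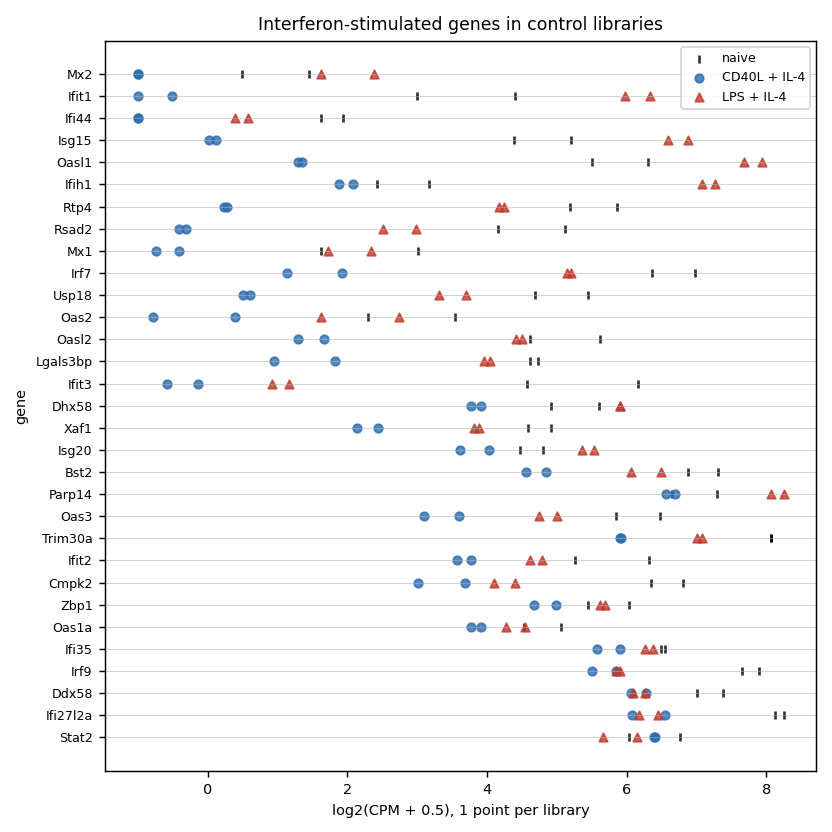
Each row is 1 of 31 interferon-stimulated genes, with 1 mark per control library (2 naive, 2 CD40L + IL-4, 2 LPS + IL-4) on a log2(CPM + 0.5) axis shared by all 24 libraries. The CD40L circles lie below both LPS triangles for most genes, and the naive bars lie above both CD40L circles for 29 of 31.

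The promoters of these genes were read because their members moved together. RefSeq promoter windows (GRCm38.p6, 250 bases before to 50 bases after a start) matched 22 of the 32 genes. A form of the interferon-stimulated response element, GAAA followed by any 2 bases and GAAA again, was sought on both strands. Of the 22 genes, 11 (50%) held a match, against 3.78% of 9806 tested genes with a window and 3.99% of all 27025 genes with a window. The list holds genes chosen as interferon-stimulated, so this share describes the list and does not bear on the difference between the cultures. Matches can overlap each other, and a match is no evidence of binding. The windows below show such matches in 4 genes of the list that were called higher, 5′ to 3′ on the gene's strand, with the match in capitals, which begins TTTC where it lies on the other strand.
Isg15 (GRCm38.p6, chr4:156200865-156200894, minus strand): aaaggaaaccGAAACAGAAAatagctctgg
Ifit1 (GRCm38.p6, chr19:34640794-34640823, plus strand): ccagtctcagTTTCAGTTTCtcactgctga
Ifit3 (GRCm38.p6, chr19:34583397-34583426, plus strand): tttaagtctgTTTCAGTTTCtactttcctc
Rsad2 (GRCm38.p6, chr12:26456553-26456582, minus strand): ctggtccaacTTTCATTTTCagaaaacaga
The Isg15 window starts its match 66 bases before the start site, that of Ifit1 85 bases, Ifit3 122 bases and Rsad2 120.0 bases before. The members with a match included Stat2 and Ddx58, which were not called. The share of called genes with this match was 4.81% for those higher and 3.44% for those lower in LPS + IL-4.

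The receptors for both stimuli were measured in both cultures. Cd40, the CD40L receptor, had 116 and 167 CPM with CD40L against 183 and 207 CPM with LPS (log2 fold change 0.47 ± 0.16 SE, adjusted p = 0.027), below the fold required for a call, which it passed without the second CD40L library (0.76). Tlr4, the LPS receptor, had 15.6 and 19.6 CPM with CD40L against 18.7 and 23.6 CPM with LPS (log2 fold change 0.28 ± 0.17 SE, adjusted p = 0.19), with naive levels of 47.1 and 48.9 CPM. Of 22 tested members of the TLR list, 1 was higher and 6 were lower, with a median of -0.19. This is a smaller share than the 42.7% of all genes called. Those lower included Tlr7, 178 and 170.0 CPM with CD40L against 114 and 107 CPM with LPS (log2 fold change -0.66 ± 0.13 SE, adjusted p = 9.7e-04), and Tlr9, 129 and 147 CPM with CD40L against 88.1 and 68.6 CPM with LPS (log2 fold change -0.82 ± 0.19 SE, adjusted p = 0.0024), endosomal receptors for RNA and DNA, and Unc93b1, which escorts them to endosomes, 586 and 669 CPM with CD40L against 471 and 358 CPM with LPS (log2 fold change -0.60 ± 0.17 SE, adjusted p = 0.0086). The Unc93b1 call lay at the edge of the fold required and was lost under 8 of 19 alternatives (-0.57 to -0.34), among them without the second LPS library (-0.41) and without the second CD40L library (-0.49). The other members called lower were Tlr2, Tlr6 and Irak4, so the falls were not limited to the endosomal receptors. The 1 member called higher was Tlr1, also at the edge of the fold required. Tlr3 was not called, and Tlr3 and Tlr6 were named after their values were seen. Cd180 had 218 and 237 CPM with CD40L against 311 and 315 CPM with LPS (log2 fold change 0.46 ± 0.17 SE, adjusted p = 0.032) and was not called. Of the 15 CD40 and TRAF genes, 1 was higher and 4 were lower, with a median of -0.01, whose sign varied among the alternatives. Traf1, an NF-kB-induced adaptor, was the exception that rose, 76.4 and 97.8 CPM with CD40L against 254 and 298 CPM with LPS (log2 fold change 1.67 ± 0.14 SE, adjusted p = 8.2e-07).

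The NF-kB list had 7 of 17 members higher and 1 lower in LPS + IL-4, with a median of 0.52, where 19.3% of all genes were higher and 23.5% lower. Nfkbia, the IkB alpha inhibitor, had 83.2 and 95.4 CPM with CD40L against 206 and 222 CPM with LPS (log2 fold change 1.26 ± 0.16 SE, adjusted p = 2.2e-05). Nfkbiz, a nuclear IkB that supports secondary response genes, had 20.2 and 22.8 CPM with CD40L against 97.4 and 83.1 CPM with LPS (log2 fold change 2.07 ± 0.37 SE, adjusted p = 3.8e-04), and Nfkbid had 17 and 15.4 CPM with CD40L against 52.6 and 47.3 CPM with LPS, a log2 fold change of 1.62 (adjusted p = 2.6e-04). Among subunits, Relb had 56.4 and 61 CPM with CD40L against 102 and 94 CPM with LPS, a log2 fold change of 0.74 (adjusted p = 6.3e-04), whereas Nfkb1 had 923 and 709 CPM with CD40L against 1165 and 1184 CPM with LPS (log2 fold change 0.52 ± 0.14 SE, adjusted p = 0.0056) and was below the fold required, though called without the first CD40L library (0.73) and with voom and quantile normalization (0.72). The inhibitor gene Nfkbie, named after its value was seen, was among those not called. Ikbkg, the NEMO subunit of the IkB kinase, was lower, 76.7 and 77.2 CPM with CD40L against 44.6 and 41.6 CPM with LPS, a log2 fold change of -0.84 (adjusted p = 4.1e-05).

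Of 15 genes of the IL-4 receptor and STAT6 response, 2 were higher and 8 were lower in LPS + IL-4, with a median of -0.62. Among all genes 19.3% were higher and 23.5% lower. Il4ra, the receptor chain, had 1644 and 1927 CPM with CD40L against 1046 and 972 CPM with LPS (log2 fold change -0.82 ± 0.14 SE, adjusted p = 2.1e-04), and the feedback inhibitors Socs1, 249 and 372 CPM with CD40L against 125 and 98.6 CPM with LPS (log2 fold change -1.47 ± 0.20 SE, adjusted p = 4.9e-05), and Cish, 232 and 308 CPM with CD40L against 162 and 140.3 CPM with LPS, a log2 fold change of -0.84 (adjusted p = 3.4e-04), moved the same way. Batf, an AP-1 factor, was higher, 68.3 and 80.7 CPM with CD40L against 169 and 201 CPM with LPS (log2 fold change 1.31 ± 0.18 SE, adjusted p = 4.9e-05). Fcer2a, CD23 itself, had 1042 and 1099 CPM with CD40L against 773 and 716 CPM with LPS (log2 fold change -0.52 ± 0.15 SE, adjusted p = 0.0092) and did not reach the fold required, except with upper quartile scaling (-0.59). In the AP-1, EGR and MAP kinase feedback list 4 of 22 were higher and 10 lower, median -0.59. Egr2, an immediate early factor, was lower, 46.2 and 33.3 CPM with CD40L against 7.48 and 7.53 CPM with LPS (log2 fold change -2.41 ± 0.19 SE, adjusted p = 6.5e-07). Junb was higher, 104 and 89.1 CPM with CD40L against 228 and 263 CPM with LPS (log2 fold change 1.34 ± 0.13 SE, adjusted p = 2.2e-06).

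Of 18 tested cytokine and chemokine genes, 8 were higher and 7 lower, with a median of 0.66, against 19.3% higher and 23.5% lower among all genes. The rises included genes almost silent in CD40L + IL-4. Il10, the regulatory cytokine, had 0.179 and 0.108 CPM with CD40L against 6.93 and 6.6 CPM with LPS, and its 3 CD40L counts against 532 LPS counts gave a ratio of 45.6 (95% interval 15.5 to 222). Il6 had 0.268 and 0.108 CPM with CD40L against 7.57 and 9.41 CPM with LPS (log2 fold change 5.42 ± 0.59 SE, adjusted p = 7.8e-06; 6.25 without the first CD40L library), and Cxcl10, a ligand of CXCR3 and an interferon target, had 0.179 and 0.216 CPM with CD40L against 7.69 and 7.55 CPM with LPS (log2 fold change 5.25 ± 0.42 SE, adjusted p = 1.9e-06); both rest on 4 CD40L counts. The calls of Il10 and Il6 were not kept with the RPKM minimum. All 3 remained below 10 CPM in LPS + IL-4. Tnf had 6.17 and 8.11 CPM with CD40L against 33.6 and 33 CPM with LPS (log2 fold change 2.23 ± 0.24 SE, adjusted p = 7.1e-06). Ebi3, a subunit of IL-27 and IL-35, had 19 and 20.01 CPM with CD40L against 72 and 82 CPM with LPS (log2 fold change 1.98 ± 0.19 SE, adjusted p = 3.1e-06). Vegfa, the vascular growth factor, fell, 81.1 and 58.9 CPM with CD40L against 8.5 and 7.05 CPM with LPS (log2 fold change -3.18 ± 0.32 SE, adjusted p = 3.5e-06).

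The homing receptor list had 13 of 19 members lower and 2 higher, where 23.5% of all genes were lower and 19.3% higher. Its median was the lowest of the 22 lists, -1.29. These receptors place B cells in follicles and let them leave lymph nodes. Ccr6, the CCL20 receptor, had 124 and 114 CPM with CD40L against 17.8 and 13.2 CPM with LPS (log2 fold change -2.96 ± 0.20 SE, adjusted p = 1.9e-07). S1pr4, a sphingosine phosphate receptor, had 186 and 250.3 CPM with CD40L against 54.6 and 43.2 CPM with LPS (log2 fold change -2.16 ± 0.22 SE, adjusted p = 3.7e-06), Gpr183, the oxysterol receptor EBI2, had 243 and 284 CPM with CD40L against 111 and 104 CPM with LPS, a log2 fold change of -1.29 (adjusted p = 1.6e-06), and Cnr2 had 286 and 300.1 CPM with CD40L against 104 and 85.8 CPM with LPS, a log2 fold change of -1.62 (adjusted p = 1.9e-06). Integrins Itgb1, 112 and 126 CPM with CD40L against 279 and 335 CPM with LPS (log2 fold change 1.37 ± 0.12 SE, adjusted p = 1.7e-06), and Itgal, 216 and 185 CPM with CD40L against 437 and 436 CPM with LPS (log2 fold change 1.12 ± 0.12 SE, adjusted p = 5.5e-06), were the 2 higher.

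Of the 13 genes of MHC class II presentation, 12 were lower in LPS + IL-4 and none was higher, against 23.5% of all genes lower. The median was -1.18, and summed levels were 31933 and 42593 CPM against 17200.0 and 14449 CPM. Cd74, the invariant chain, had 14732 and 19805 CPM with CD40L against 7512 and 6340.0 CPM with LPS (log2 fold change -1.32 ± 0.18 SE, adjusted p = 4.4e-05). H2-Ab1, a class II beta chain, had 4085 and 5248 CPM with CD40L against 2208 and 1909 CPM with LPS (log2 fold change -1.18 ± 0.16 SE, adjusted p = 5.1e-05). Both are among the most abundant transcripts, and both calls were lost with voom and quantile normalization, where the log2 fold change of Cd74 was -0.09 and that of H2-Ab1 -0.56. H2-DMa, a chain of the peptide editor H2-DM, had 998 and 1331 CPM with CD40L against 338 and 284 CPM with LPS (log2 fold change -1.90 ± 0.15 SE, adjusted p = 7.3e-07). H2-Oa, a chain of H2-O, which modulates that editor, had 171 and 241 CPM with CD40L against 59.6 and 40.5 CPM with LPS (log2 fold change -2.04 ± 0.24 SE, adjusted p = 1.3e-05). Ctss, a cathepsin, had 383 and 537 CPM with CD40L against 354 and 325 CPM with LPS (log2 fold change -0.44 ± 0.15 SE, adjusted p = 0.025) and was not called, but was called without the first CD40L library (-0.66). Reads of near-identical class II genes can be lost to a counter that keeps unique matches, which bears on the H2 genes. Both naive libraries were above both LPS libraries for 11 of the 13 genes.

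**Figure D3:**
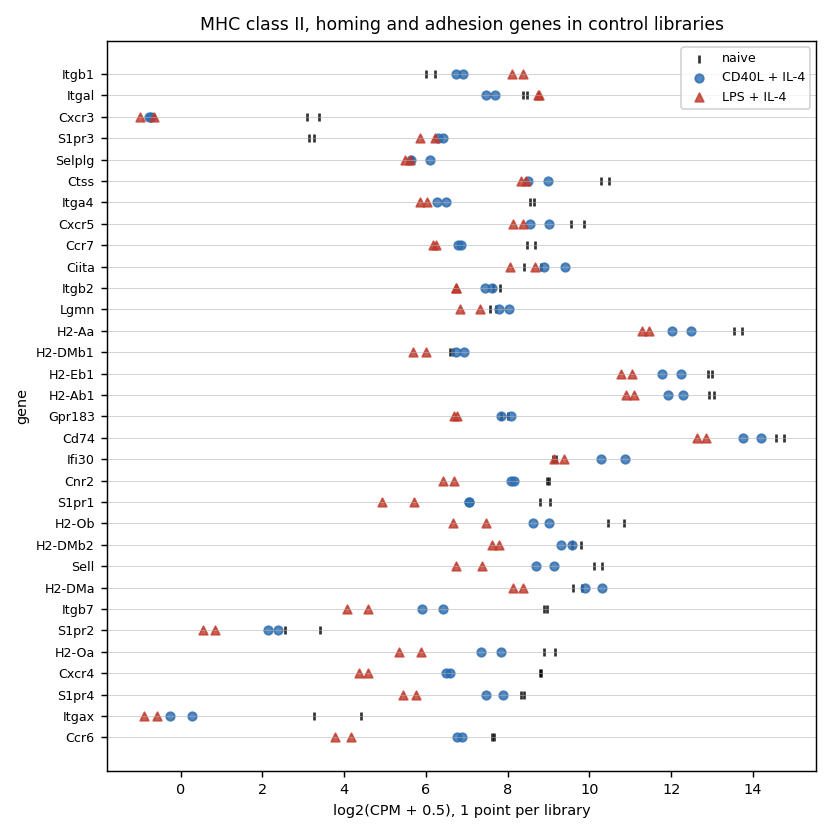
Each row is a gene of MHC class II presentation or of homing and adhesion, with 1 mark per control library (2 naive, 2 CD40L + IL-4, 2 LPS + IL-4) on a log2(CPM + 0.5) axis shared by all 24 libraries. The LPS triangles lie left of the CD40L circles for the 12 presentation genes and 13 homing genes called lower, and right of them for Itgb1 and Itgal.

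Transcription factors of B cell identity showed 16 of 24 lower and 1 higher, with a median of -0.76, where 23.5% of all genes were lower and 19.3% higher. Ets1 was lower, 922 and 877 CPM with CD40L against 252 and 195 CPM with LPS (log2 fold change -2.01 ± 0.15 SE, adjusted p = 3.5e-07), as were Pou2af1, the OCA-B coactivator, 2112 and 2102 CPM with CD40L against 775 and 769.9 CPM with LPS (log2 fold change -1.45 ± 0.12 SE, adjusted p = 1.1e-06), and Klf2, a quiescence and migration factor, 431 and 550.0 CPM with CD40L against 124 and 69.6 CPM with LPS (log2 fold change -2.35 ± 0.26 SE, adjusted p = 1.0e-05). Pax5 had 218 and 232 CPM with CD40L against 145 and 123 CPM with LPS (log2 fold change -0.75 ± 0.17 SE, adjusted p = 0.0021) and Bcl6, the germinal centre repressor, had 31.6 and 15.9 CPM with CD40L against 8.62 and 4.89 CPM with LPS (log2 fold change -1.84 ± 0.41 SE, adjusted p = 0.0019), both lower; without the first CD40L library Bcl6 was at -1.25. Bach2 had 162 and 122 CPM with CD40L against 134 and 127 CPM with LPS (log2 fold change -0.12 ± 0.16 SE, adjusted p = 0.53) and was not called. The factor higher was Pou2f2, the octamer protein Oct-2, 82 and 54.9 CPM with CD40L against 163 and 138 CPM with LPS (log2 fold change 1.14 ± 0.34 SE, adjusted p = 0.013), named after its value was seen. Spib, levels above, had a log2 fold change of -0.98 (adjusted p = 0.0015), and Spi1 a log2 fold change of -0.60 (adjusted p = 0.0085) that was lost under 10 of 19 alternatives (-0.58 to -0.29), among them when the second library of either culture was left out (-0.49 without that of LPS + IL-4, -0.39 without that of CD40L + IL-4). Of 25 BCR signalling genes, 10 were lower and 3 higher, median -0.48. Cd79a, the antigen receptor chain, had 1022 and 1288 CPM with CD40L against 576 and 472 CPM with LPS (log2 fold change -1.14 ± 0.18 SE, adjusted p = 1.4e-04). The kinase Syk was higher, 146 and 158 CPM with CD40L against 320.5 and 304 CPM with LPS (log2 fold change 1.04 ± 0.19 SE, adjusted p = 5.0e-04).

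Against 19.3% higher and 23.5% lower among all genes, 4 of 17 costimulation and activation markers were higher and 8 lower, median -0.59. The TNF receptor superfamily had 2 of 14 higher and 7 lower, median -0.67. Of those 7, 5 had a mean below 1 CPM in both cultures, and the median turned to 0.18 with a minimum of 5 CPM and to 0.03 with the 4 control libraries alone. Il2ra, CD25, had 9.48 and 11.8 CPM with CD40L against 39.5 and 55.3 CPM with LPS (log2 fold change 2.17 ± 0.21 SE, adjusted p = 2.7e-06). Cd69 had 28.2 and 39.4 CPM with CD40L against 87.5 and 83.9 CPM with LPS, a log2 fold change of 1.35 (adjusted p = 1.2e-05). Cd38 was lower, 52.1 and 82.1 CPM with CD40L against 23.2 and 13.2 CPM with LPS (log2 fold change -1.89 ± 0.30 SE, adjusted p = 1.4e-04). Tnfrsf8, CD30, was higher, 7.25 and 3.89 CPM with CD40L against 50.1 and 73.3 CPM with LPS (log2 fold change 3.45 ± 0.31 SE, adjusted p = 1.4e-06). So was Tnfrsf13b, TACI, 71.6 and 52.9 CPM with CD40L against 180.3 and 197 CPM with LPS (log2 fold change 1.60 ± 0.17 SE, adjusted p = 5.7e-06). Tnfrsf13c, the BAFF receptor, had 292 and 362 CPM with CD40L against 416 and 439.7 CPM with LPS (log2 fold change 0.39 ± 0.16 SE, adjusted p = 0.056) and was not called.

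Genes of antibody class switching were split. Of 18, 8 were higher and 2 lower, median 0.42, where 19.3% of all genes were higher and 23.5% lower. The end-joining factors Xrcc5, 42.9 and 44 CPM with CD40L against 73.2 and 93.1 CPM with LPS (log2 fold change 0.94 ± 0.13 SE, adjusted p = 7.0e-05), and Xrcc6, 64.7 and 64.2 CPM with CD40L against 113 and 140.3 CPM with LPS, a log2 fold change of 0.98 (adjusted p = 8.5e-05), were higher. Of 12 immunoglobulin constant genes 2 were higher and 5 lower, median -0.75. Ighg1, whose transcripts include germline ones, had 276 and 180.0 CPM with CD40L against 126 and 152 CPM with LPS (log2 fold change -0.71 ± 0.20 SE, adjusted p = 0.0093), lost without the first CD40L library (-0.37) and, with no deposited value for the CD40L libraries, under the RPKM minimum. Ighm had 8071 and 9425 CPM with CD40L against 5901 and 5979.5 CPM with LPS (log2 fold change -0.56 ± 0.14 SE, adjusted p = 0.004), below the fold required but called without the first CD40L library (-0.66) and with upper quartile scaling (-0.62). The plasma cell programme had 4 of 20 higher, near the 19.3% of all genes, and 9 lower, against 23.5%. Its median was -0.33, which was -0.02 with the 4 control libraries alone and 0.05 without the second CD40L library. Prdm1, the plasma cell regulator Blimp-1, was higher, 8.5 and 9.41 CPM with CD40L against 22 and 18.5 CPM with LPS (log2 fold change 1.18 ± 0.14 SE, adjusted p = 1.8e-05). Xbp1, the secretory regulator, was lower, 823 and 986 CPM with CD40L against 357 and 362 CPM with LPS (log2 fold change -1.33 ± 0.15 SE, adjusted p = 1.0e-05). Irf4 had 407 and 460.3 CPM with CD40L against 257 and 320.4 CPM with LPS (log2 fold change -0.59 ± 0.19 SE, adjusted p = 0.021), a call at the edge of the fold required that was lost under 10 of 19 alternatives (-0.58 to -0.44), among them without the first LPS library (-0.44) and without the second CD40L library (-0.49). CD138+ cells were left out by the sort. In the ER and unfolded protein list 3 of 24 were higher and 4 lower, median 0.13, also fewer than among all genes. Hspa5, the chaperone BiP, was higher, 1008 and 1312 CPM with CD40L against 1762 and 2056 CPM with LPS (log2 fold change 0.72 ± 0.17 SE, adjusted p = 0.003; 0.55 and not called without the first CD40L library), and Atf6 was lower, 244 and 220.0 CPM with CD40L against 109 and 107 CPM with LPS (log2 fold change -1.10 ± 0.11 SE, adjusted p = 3.1e-06).

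Growth genes differed by list. In the MYC and ribosome biogenesis list 11 of 19 were higher and 4 lower, with a median of 1.28, where 19.3% of all genes were higher and 23.5% lower. Ncl, nucleolin, had 1687 and 1480.1 CPM with CD40L against 4868 and 5463 CPM with LPS (log2 fold change 1.71 ± 0.13 SE, adjusted p = 5.7e-07), Nolc1 had 167 and 114 CPM with CD40L against 566 and 615 CPM with LPS (log2 fold change 2.07 ± 0.16 SE, adjusted p = 4.6e-07) and Polr1b, an RNA polymerase I subunit, had 43.1 and 33.1 CPM with CD40L against 171 and 219 CPM with LPS (log2 fold change 2.35 ± 0.20 SE, adjusted p = 9.9e-07). Myc, likewise added after its value was seen, had 101 and 87.5 CPM with CD40L against 211 and 246 CPM with LPS (log2 fold change 1.28 ± 0.18 SE, adjusted p = 5.5e-05). The 4 lower were Mxd3, Mxd4, Mxd1 and Mnt, which all partner Max and oppose MYC; Mxd3 had 42.5 and 44.9 CPM with CD40L against 8.96 and 8.59 CPM with LPS (log2 fold change -2.32 ± 0.17 SE, adjusted p = 3.5e-07). Of 42 cell cycle genes, 6 were higher and 8 lower, with a median of 0.25, a smaller share than the 42.7% of all genes. Ccnd2, cyclin D2, was higher, 316 and 283 CPM with CD40L against 1331 and 1672 CPM with LPS (log2 fold change 2.33 ± 0.18 SE, adjusted p = 6.4e-07). E2f2 was lower, 228 and 265 CPM with CD40L against 78.3 and 64.1 CPM with LPS (log2 fold change -1.79 ± 0.15 SE, adjusted p = 7.9e-07), and the inhibitors Cdkn2d, Cdkn2c and Cdkn1b were lower by log2 fold change of -1.90 (adjusted p = 1.9e-06), log2 fold change of -1.48 (adjusted p = 2.7e-06) and log2 fold change of -1.24 (adjusted p = 5.9e-05). Top2a, a marker of dividing cells, had 1039 and 654 CPM with CD40L against 881 and 1038 CPM with LPS (log2 fold change 0.18 ± 0.18 SE, adjusted p = 0.43).

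Of 20 glycolysis genes, 4 were higher and 2 lower, median 0.16, and of 22 sterol and fatty acid genes, 3 were higher and 3 lower, median -0.04, with a sign that varied among the alternatives. Both lists had fewer members called than the 42.7% of all genes. Slc16a1, a lactate transporter, was higher, 65.9 and 53.2 CPM with CD40L against 241 and 317 CPM with LPS (log2 fold change 2.23 ± 0.21 SE, adjusted p = 2.7e-06), whereas its relative Slc16a3 was among the largest falls. Scd2, a fatty acid desaturase, was lower, 976 and 796 CPM with CD40L against 279.8 and 370.1 CPM with LPS (log2 fold change -1.45 ± 0.23 SE, adjusted p = 1.4e-04). In the BCL2 family 7 of 16 were higher and 3 lower, against 19.3% and 23.5% of all genes, median 0.11 (-0.04 without the first LPS library). Bcl2l1, the survival protein BCL-XL, was higher, 34.2 and 42.8 CPM with CD40L against 108 and 148 CPM with LPS (log2 fold change 1.74 ± 0.18 SE, adjusted p = 6.2e-06), and Bcl2 was lower, 75 and 64.9 CPM with CD40L against 43 and 44.3 CPM with LPS (log2 fold change -0.68 ± 0.16 SE, adjusted p = 0.0024), a call lost without the first CD40L library (-0.57). Bcl2a1a, Bcl2a1b and Bcl2a1d are near-identical copies, so that the counts of each are uncertain.

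**Figure D4:**
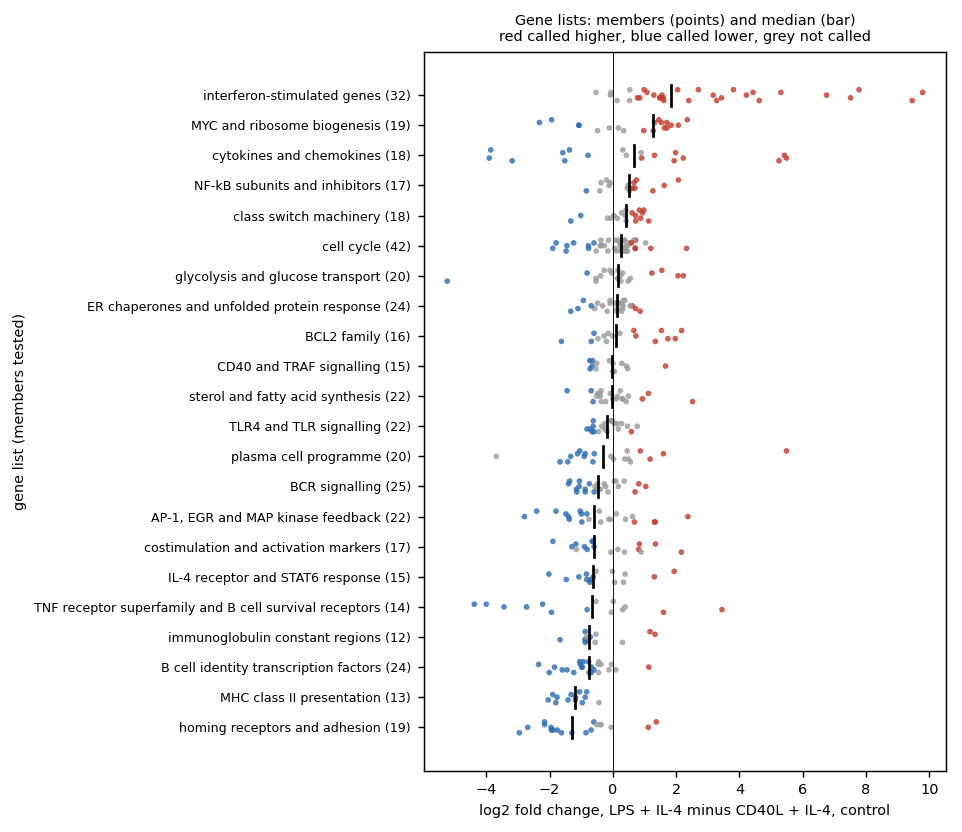
Each row is 1 of the 22 gene lists with its number of members tested, each point is the log2 fold change of 1 member between the control cultures, and the black bar is the list's median. Interferon-stimulated genes have the highest median (1.83) and homing receptors the lowest (-1.29).

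The same contrast within the other genotypes compared 12 libraries that the control contrast does not compare. All 16 cultured libraries share the same fit, with its filter, scaling and estimate of the spread, so the calls of the genotypes are not fully independent. By the same call, the cultures of PU.1 cKO cells differed for 4959 genes (37.9%), those of SpiB KO cells for 4843 (37%) and those of PU.1 SpiB DKO cells for 2926 (22.4%). The first CD40L + IL-4 library of DKO cells had 6.64% of its counts in Rn45s, the highest of the 16 cultured libraries, against 0.464% in the second. Its 10 most abundant genes took 14.6% of counts, against 7.67%. The part of this in the DKO values was not tested. Of the 5589 genes called in control, 3645 (65.2%) were called in the same direction for PU.1 cKO, 4102 (73.4%) for SpiB KO and 1896 (33.9%) for DKO cells, and 1520 (27.2%) in all 3 of these genotypes. Taken from the other side, those genes were 73.5%, 84.7% and 64.8% of the calls of each genotype. Calls in the opposite direction numbered 48, 10 and 76. Each genotype's libraries carry the same split of sequencing. MHC class II genes were lower for 11, 10 and 8 of 13 members in the order PU.1 cKO, SpiB KO, DKO, where 18.8%, 19.6% and 11.2% of all genes were lower. Interferon-stimulated genes were higher for 22, 19 and 13 of 32 and lower for 1, 2 and 0, where 19.1%, 17.5% and 11.1% of all genes were higher. Isg15 had log2 fold changes of 7.51, 5.40 and 4.33 in these genotypes. No difference between genotypes was tested.

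**Figure D5:**
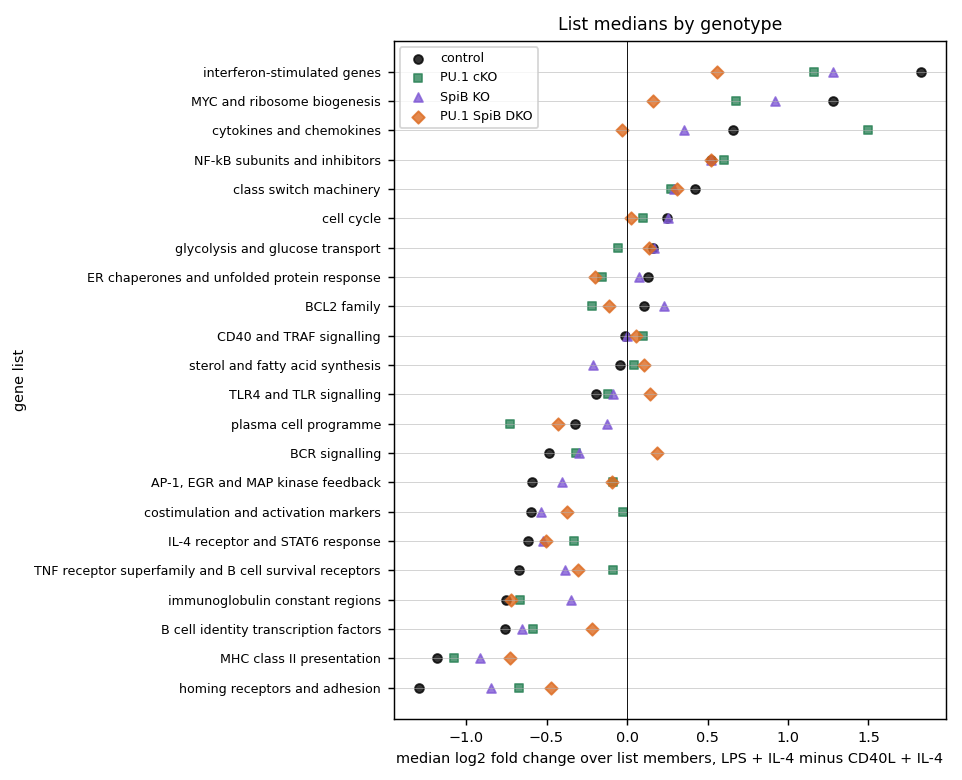
Each row is 1 gene list and each mark is the median log2 fold change of its members between LPS + IL-4 and CD40L + IL-4 in 1 genotype (control, PU.1 cKO, SpiB KO, PU.1 SpiB DKO, 2 against 2 libraries each). The interferon list has medians of 1.83, 1.16, 1.28 and 0.56 in that order.

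One property of transcripts moved with the contrast. Over the 11771 genes with a value (90%), the log2 fold change had a Spearman correlation of -0.254 with the GC content of the longest transcript, a description across genes, which are not independent. The median log2 fold change was 0.218 in the 20% of genes lowest in GC and -0.394 in the 20% highest. With transcript length the correlation was 0.0129. With the trends on GC and length removed, the calls of Il4ra (-0.52), Tlr9 (-0.54), Unc93b1 (-0.34), Irf4 (-0.58) and Spi1 (-0.29) were lost, whereas the median of the interferon-stimulated genes was 1.84 and that of MHC class II presentation -1.08.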

How the data were processed

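RNA-seq was measured in 24 libraries, of which the 4 control libraries of the 2 cultures were compared. The authors aligned reads with Subread to GRCm38 (mm10), kept uniquely mapped reads and counted them over RefSeq exons with featureCounts, and deposited raw counts per gene in 2 tables, one for the CD40L libraries (its name says trimmed, which is not explained) and one for the naive and LPS libraries. Log2 RPKM values, made by the authors with a filter and limma's voom with quantile normalization, were deposited for each library; these list 12634 genes for LPS libraries and 13569 for the others, were normalized apart, and were used only as a level filter in 1 alternative. Tool versions are not given in the sources used here. No deposited column was left unused (0).

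The tables were joined on Entrez ID (27179 entries; 517 without a symbol, 0.162% of counts). Counts were fitted by edgeR 4.0.16 (R 4.3.3, limma 3.58.1): TMM scaling, genes of at least 0.5 CPM in at least 2 of 16 cultured libraries, 8 groups of genotype and culture, the quasi-likelihood test, and calls at an adjusted p (Benjamini-Hochberg) under 0.15 and a fold over 1.5. CPM values are TMM-scaled; naive values come from a scaling of all 24 libraries. Limma's voom with quantile normalization and DESeq2 1.42.0 were among 19 alternatives, 1 of them (GC content and length) added after seeing the data. The method was tested on simulated data: of 200 genes changed by 1 on the log2 scale in a simulated control contrast over 12752 genes, 82% were recovered, with 18 false calls. The simulated rises and falls were equal in number, far fewer genes changed than were called here, and there was no effect of sequencing run. Recovery and scaling in the setting of these data were therefore not tested.

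Named genes were the 12 largest rises and 12 largest falls among called genes of at least 10 CPM without overlap (predicted genes left out), up to 6 called and up to 3 uncalled members per list, and 16 fixed genes; others are marked as named after their values were seen. The genotypes, lists and genes were chosen with earlier results of these data known. Ratios of low counts have exact 95% intervals; intervals and the floor of 3 counts cover counting error only. P-values measure the spread between these libraries. Without strand information, reads of overlapping opposite genes cannot be told apart. Some list members counted here are not reported by name.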

Additional observations from a re-analysis of the deposited data

Results flagged for a closer look

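Spi1 was lower in LPS + IL-4 in control (log2 fold change -0.60) but higher in PU.1 SpiB DKO cells, by 0.99 (adjusted p = 0.0014, edgeR), with 33.1 and 25.9 CPM in CD40L + IL-4 and 60.8 and 56.5 CPM in LPS + IL-4, so that all libraries of one genotype moved against those of the other. The control call was lost under 10 of 19 alternatives (-0.58 to -0.29). The difference between the genotypes was not tested. In PU.1 cKO cells, which also carry floxed Spi1 and the Cre transgene, the log2 fold change was 0.02 (adjusted p = 0.94, edgeR). In SpiB KO cells it was -0.45, below the fold required. The first CD40L + IL-4 library of DKO cells is the one with 6.64% of its counts in Rn45s, and the part of this in the Spi1 value was not tested. Spi1 is the gene floxed in the DKO mice, and gene counts do not show which of its exons the remaining reads cover. From read coverage, the study reports the floxed exon as fully removed with CD40L + IL-4 and a similarly efficient deletion with LPS + IL-4.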

How the results depend on the processing

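The number of genes called stayed between 4280 and 5807 under all 19 alternatives, against 5589, and the share of calls higher in LPS + IL-4 ranged from 40.3% to 49.7%, against 45.1%. Leaving out 1 library gave 4775 to 5807 calls. Upper quartile scaling moved the median of all genes to -0.11. With the GC and length trend removed, an alternative added after seeing the data, 4766 of 11771 genes were called and 4204 of the 5032 original calls with a value were kept. Deviations of same-numbered libraries were positively correlated in most pairs of groups (between cultures 0.0612 to 0.473, over 0.1 in 15 of 16 pairs; within LPS 0.53 to 0.746; within CD40L -0.00432 to 0.502). The labels tie no number to an animal or day and each group has 2 numbers, so the numbers were not taken as a pairing and the correlations are a hint from the data only: with a replicate block, 5655 genes were called (common to both cultures) or 5669 (within culture), and 5550 and 5535 of the 5589 calls were kept.

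Of 22 list medians, those that moved beyond the replicate spread were as follows, and the cause was not tested. With a minimum of 5 CPM the interferon median was 1.57, the TNF receptor median 0.18 and the AP-1 and EGR median -0.80. With the 4 control libraries alone the plasma cell median was -0.021, cytokines 0.94, TNF receptors 0.029 and AP-1 and EGR -0.78; thinned to equal depth the last was -0.33. With GC and length removed, the BCL2 family was at 0.30; the check is void for immunoglobulin constant regions (-1.95), where 1 of 12 members has a GC value. The medians of the CD40 and TRAF list and of the sterol and fatty acid list, both near 0, changed sign under several alternatives. Without 1 library, medians ranged from -0.15 to -0.0069 for CD40 and TRAF, -0.74 to -0.48 for immunoglobulin constants, 0.25 to 0.66 for class switch, -0.41 to 0.049 for the plasma cell programme, 0.29 to 0.77 for cytokines, -0.043 to 0.24 for the BCL2 family and -0.96 to -0.21 for AP-1 and EGR. Among genes not called, the sign changed without 1 library for Bach2 (-0.30 to 0.10), Ddx58 (-0.15 to 0.059), Ifi27l2a (-0.28 to 0.19) and Top2a (-0.10 to 0.56), and for Ifi27l2a with GC and length removed (0.062). Of the 110 genes named with a value, a mean deposited log2 RPKM above 0 ended 14 calls: 10 genes had a mean at or below 0 (Ifit1, Dlk1, Sytl3, Itgb5, Slco3a1, Il10, Mx2, Ifi44, P2rx3 and Zfp521) and 4 had no deposited value in 1 culture (Il6, Ighg1, Fam115c and Mmp25). Over all alternatives, single genes lost a call in 49 cases and gained one in 10.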
